A study of Mus musculus with 14 samples.

Results

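The ERBB receptors, their ligands and the inhibitor Errfi1 were followed in neural stem cell cultures that had lost or kept Cic. The members are the receptor genes Egfr, Erbb2, Erbb3 and Erbb4, the inhibitor gene Errfi1, and the ligand genes Tgfa, Hbegf, Areg, Ereg and Nrg1. They were chosen by name, as 10 genes of this pathway among 23102 genes with a value on the arrays. The level of a gene was the median of the probesets that name it alone, on the log2 scale. A value was obtained for 9 of the 10, and Areg is not analysed here because no probeset named it alone. All 9 lay above the limit for dim genes, a log2 mean of 4.4, and were tested together with the other genes kept, 17326 in all.

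The 4 receptors sit in the cell membrane and pair up when a ligand binds. EGFR takes up EGF, TGFA and AREG, ERBB3 takes up neuregulins, and ERBB4 takes up neuregulins as well as HBEGF and EREG, which also bind EGFR. ERBB2 has no known ligand of its own and acts as a partner of the others. The paired receptors signal through RAS and ERK, and ERK relieves repression by capicua, the DNA-binding protein that Cic encodes. ERRFI1 binds the kinase domain of EGFR and blocks it, as a feedback inhibitor. In the subventricular zone EGFR is known from dividing progenitors and ERBB4 from migrating neuroblasts.

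The cultures were made from the subventricular zone (SVZ) of postnatal day 4 mice, and each clone was established from an individual animal and transduced with adenoviral Cre, the controls included. Clones 5 to 7 were Cic-/- (Cicflox/flox, conditional knockout) and clones 1 to 4 were wild type controls, Cic+/+. Every clone was kept for 24 h in NeuroCult proliferation medium with EGF and for 24 h in the same medium without it, so the 14 Affymetrix arrays form 4 groups. These are Cic-/- with EGF, Cic+/+ with EGF, Cic-/- without EGF and Cic+/+ without EGF, 3 arrays for either Cic-/- group and 4 for either Cic+/+ group.

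The arrays had medians from 6.488 to 6.536 and correlated at 0.93 to 0.973 with each other, and their number limits the precision. Cic itself averaged 7.54 ± 0.13 in Cic-/- clones with EGF, against 9.50 ± 0.13 in Cic+/+ clones with EGF (SD, n = 3 and 4). Without EGF it averaged 7.26 ± 0.22 in Cic-/- clones and 9.43 ± 0.21 in Cic+/+ clones (SD, n = 3 and 4). All 8 neural stem cell markers looked at, Nes and Sox2 among them, lay above the dim limit, and their mean level ran from 9.93 to 10.48 over the 14 arrays. The mean level of the microglia, endothelial and fibroblast lists stayed between 4.39 and 5.43. Of their genes, 6 of 7, 3 of 5 and 4 of 6 lay above the dim limit, and Aif1, Cldn5, Tek, Dcn and Lum lay below. The limit therefore does not show whether these cell types were absent. Clone 4 stood apart in Xist, the RNA of the inactive X chromosome, which was at 4.73 and 3.83 on its arrays with and without EGF and between 11.96 and 12.57 on all others. Results that rest on that clone are given without it where a call changes. In bulk cultures, fewer cells of a type and less RNA per cell cannot be told apart.

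The promoters of Erbb4 and Tgfa are shown because these were the members with the largest differences. Each is the 250 bases before the gene's start in RefSeq, on mouse assembly GRCm38.p6, in the direction of the gene. The first is at chr1:69108060-69108309 on the minus strand and the second at chr6:86194972-86195221 on the plus strand. Capitals mark the GC box, GGGCGG or its complement CCGCCC, a letter pattern bound by SP1.
Erbb4: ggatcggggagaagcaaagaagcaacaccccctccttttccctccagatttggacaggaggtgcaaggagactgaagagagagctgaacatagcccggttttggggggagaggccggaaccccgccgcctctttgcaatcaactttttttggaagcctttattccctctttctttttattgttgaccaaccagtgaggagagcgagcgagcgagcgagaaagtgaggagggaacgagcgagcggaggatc
Tgfa: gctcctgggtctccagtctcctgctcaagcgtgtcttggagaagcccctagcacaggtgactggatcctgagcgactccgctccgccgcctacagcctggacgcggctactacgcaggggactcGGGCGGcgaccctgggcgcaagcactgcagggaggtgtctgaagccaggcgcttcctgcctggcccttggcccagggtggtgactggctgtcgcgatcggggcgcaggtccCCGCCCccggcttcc
Capicua binds the octamers TGAATGAA and TGAATGGA. Neither was found on either strand in the 7 windows of the 6 members that had one, namely Erbb4, Errfi1 with 2 windows, Areg, Tgfa, Egfr and Erbb2. Among all 32851 windows 2.07% held 1 of the 2 octamers. The GC box was found in 4 of the 7 windows, those of Egfr, Areg, Tgfa and 1 of Errfi1, against 32.7% of all windows. These matches describe letters in a short window, and no binding was measured.

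Over the 9 members, none passed the limma test in any of 5 comparisons when the 4 groups were fitted without pairing the clones, at a Benjamini-Hochberg adjusted p under 0.05. The 5 are Cic-/- minus Cic+/+ with EGF and without EGF, with EGF minus without EGF in either genotype, and the EGF difference in Cic-/- minus that in Cic+/+, here called the interaction. Among all genes tested, 0.306% passed for genotype with EGF, 0.548% for genotype without EGF, 0.19% for EGF in Cic-/- clones, 0.906% for EGF in Cic+/+ clones and 0.00577% for the interaction. At an unadjusted p under 0.05 there were 0 members for genotype with EGF, 2 without EGF (Erbb4 and Tgfa), 1 for EGF in Cic-/- clones (Erbb4), 2 in Cic+/+ clones (Erbb4 and Tgfa) and 2 for the interaction (Erbb3 and Tgfa). The shares of all genes tested at that unadjusted threshold were 10.6%, 10.8%, 9.8%, 12.5% and 2.85% in the same order. Since each clone gave an array with EGF and an array without it, the same comparisons were fitted with the clone as a block. Then Erbb4 passed in Cic-/- clones, and Erbb4 and Tgfa passed in Cic+/+ clones, each lower with EGF. That is 1 of 9 members in Cic-/- clones against 2.11% of all genes, 2 of 9 in Cic+/+ clones against 5.15%, and 0 of 9 for the interaction against 0.0404%.

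**Figure D1:**
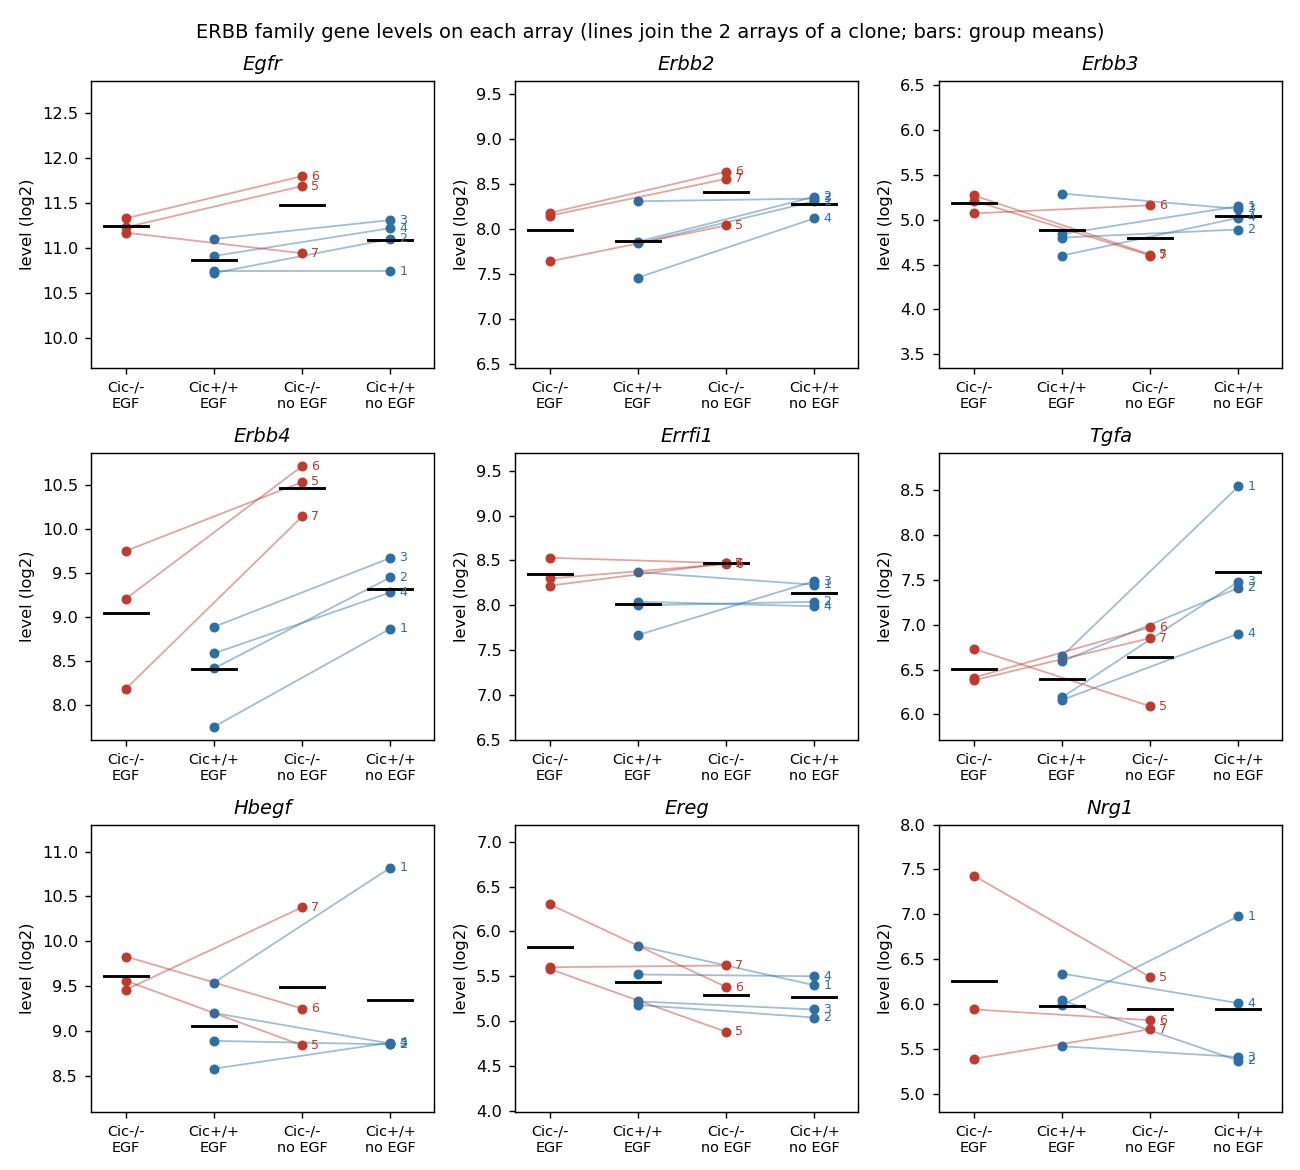
Log2 level of 9 members on each of the 14 arrays, in panels by gene with the 4 groups along the x axis. Points are arrays, numbers are clones, lines join the 2 arrays of a clone and black bars are group means. Erbb4 is lower with EGF in all 7 clones, and the Tgfa level of clone 1 without EGF, 8.54, lies above the other 13 arrays.

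Erbb4, the neuregulin receptor, was lower with EGF in every clone and stood higher in Cic-/- clones without EGF than in any other array. With EGF its log2 level was 9.75, 9.21 and 8.19 in Cic-/- clones 5, 6 and 7, against 7.76, 8.42, 8.89 and 8.59 in Cic+/+ clones 1 to 4. Without EGF its level was 10.53, 10.71 and 10.14 in Cic-/- clones 5, 6 and 7, against 8.87, 9.45, 9.67 and 9.28 in Cic+/+ clones 1 to 4. The genotypes overlapped with EGF and did not overlap without it.

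The order of the Erbb4 group means was Cic-/- without EGF at 10.46 ± 0.29, Cic+/+ without EGF at 9.32 ± 0.34, Cic-/- with EGF at 9.05 ± 0.79 and Cic+/+ with EGF at 8.42 ± 0.48 (SD, n = 3, 4, 3 and 4). Arrays of neighbouring groups in this order overlapped, except for the highest group, which lay above the next. The difference between Cic-/- and Cic+/+ clones was 0.63 ± 0.34 with EGF, or 1.55-fold, with a 95% interval of -0.09 to 1.35 (log2 ± SE, limma adjusted p = 0.534). The difference without EGF was 1.14 ± 0.34, or 2.2-fold, with an interval of 0.42 to 1.86 (limma adjusted p = 0.191). Neither genotype difference passed the test, with or without the clone as a block. With EGF it was 0.28 without clone 5, 0.41 without clone 1 and 1.06 without clone 7. The brightest probeset gave 0.44 with EGF and 0.56 without EGF.

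The EGF difference of Erbb4 was -0.78, -1.50 and -1.95 in Cic-/- clones 5, 6 and 7, and -1.11, -1.03, -0.78 and -0.68 in Cic+/+ clones 1 to 4. All 7 clones thus had less Erbb4 with EGF. In Cic-/- clones the difference was -1.41, or 2.66-fold lower with EGF, with an SE of 0.36 and a limma adjusted p of 0.152 without the block, and an SE of 0.27 and a limma adjusted p of 0.0156 with it. In Cic+/+ clones it was -0.90, or 1.87-fold lower with EGF, with an SE of 0.31 and a limma adjusted p of 0.221 without the block, and an SE of 0.23 and a limma adjusted p of 0.041 with it. The difference between the genotypes in this EGF difference was -0.51 ± 0.47, with an interval of -1.53 to 0.51 (limma adjusted p = 1). These blocked calls were lost when some clones were left out: in Cic-/- clones the limma adjusted p was 0.113 without clone 6 and 0.065 without clone 7, and in Cic+/+ clones it was 0.0713, 0.198, 0.127 and 0.121 without clones 1, 2, 3 and 4. Read from its brightest probeset, Erbb4 had a smaller EGF difference, -0.80 in Cic-/- clones and -0.68 in Cic+/+ clones, and did not pass with the block (limma adjusted p = 0.0903 and 0.0664).

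The single probesets of Erbb4 ran with the gene value. Of its 28 probesets, 28 were higher in Cic-/- than in Cic+/+ clones with EGF, and 28 were without EGF. With EGF, 28 were lower than without it in Cic-/- clones, with differences from -1.85 to -0.52, and 27 were in Cic+/+ clones, from -1.84 to 0.24. The probesets share the same arrays and are not replicates. Tested 1 by 1 in limma over all probesets, none of the 28 passed without the block and 1 passed with it, in Cic+/+ clones.

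**Figure D2:**
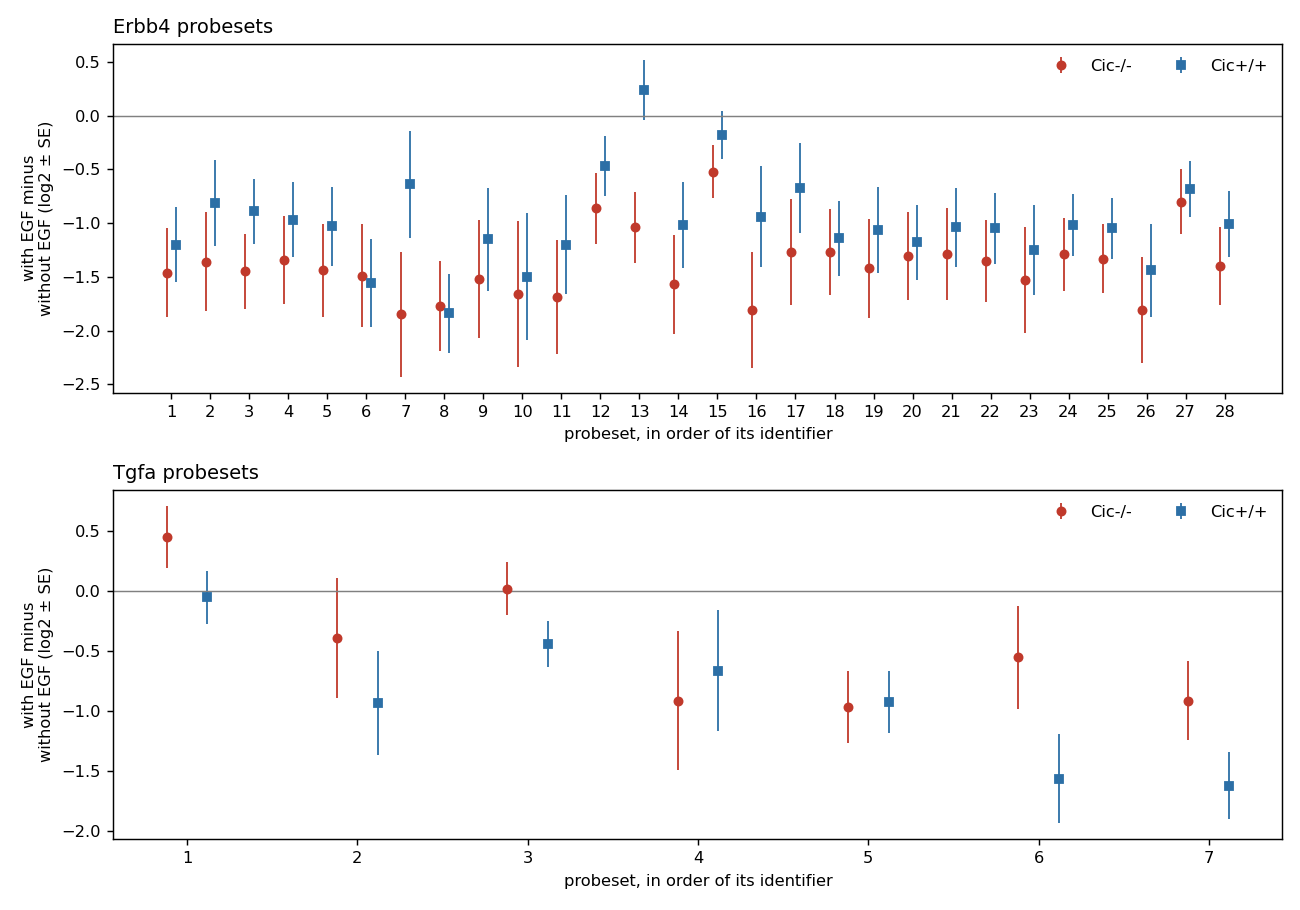
EGF difference, log2 ± SE from limma without the block, of each Erbb4 probeset (upper panel) and each Tgfa probeset (lower panel), along the x axis in order of the probeset identifier. Red circles are Cic-/- and blue squares Cic+/+ clones. In Cic+/+ clones 27 of 28 Erbb4 probesets and 7 of 7 Tgfa probesets lie below 0, and in Cic-/- clones 28 of 28 and 5 of 7.

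Egfr, the receptor for the EGF in the medium, passed no test. The log2 levels of Egfr with EGF were 11.23, 11.33 and 11.17 in Cic-/- clones 5, 6 and 7, against 10.74, 10.72, 11.10 and 10.91 in Cic+/+ clones 1 to 4. Its log2 levels without EGF were 11.69, 11.80 and 10.94 in Cic-/- clones 5, 6 and 7, against 10.74, 11.10, 11.31 and 11.22 in Cic+/+ clones 1 to 4. The genotypes did not overlap with EGF and did overlap without it, where clone 7 lay below 3 of the Cic+/+ clones.

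Egfr was the 1 member of 9 whose genotypes did not overlap with EGF, and 11.7% of all genes tested did not overlap in that comparison. Without EGF there were 2 such members, Erbb4 and Errfi1, both higher in Cic-/- clones, against 9.39% of all genes. The genotype difference of Egfr was 0.38 ± 0.2 with EGF, with a 95% interval of -0.05 to 0.81 (limma adjusted p = 0.534), and 0.39 ± 0.2 without EGF, with an interval of -0.05 to 0.82 (limma adjusted p = 0.531). Its EGF difference was -0.46, -0.47 and 0.23 in Cic-/- clones 5, 6 and 7, and -0.01, -0.38, -0.21 and -0.31 in Cic+/+ clones 1 to 4. By its gene value clone 7 had more Egfr with EGF, while 17 of its 31 probesets were higher and 14 lower. By group means, 31 of 31 probesets were lower with EGF in Cic-/- clones and 25 in Cic+/+ clones. In clone 1, whose gene value was near 0, 24 of 31 probesets were higher with EGF and 7 lower. The mean difference was -0.23 in Cic-/- clones, with an interval of -0.7 to 0.23, and -0.23 in Cic+/+ clones, with an interval of -0.63 to 0.17 (limma adjusted p = 0.803 and 0.677).

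Erbb2, the partner receptor without a ligand, was a little lower with EGF in all 7 clones. In medium with EGF the log2 level of Erbb2 was 7.64, 8.18 and 8.15 in Cic-/- clones 5, 6 and 7, against 7.84, 7.86, 8.31 and 7.46 in Cic+/+ clones 1 to 4. In medium without EGF the level was 8.04, 8.64 and 8.56 in Cic-/- clones 5, 6 and 7, against 8.31, 8.36, 8.34 and 8.12 in Cic+/+ clones 1 to 4. The EGF difference lay between -0.46 and -0.40 in the 3 Cic-/- clones and between -0.66 and -0.03 in the 4 Cic+/+ clones.

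The mean EGF difference of Erbb2 was -0.42 ± 0.22 in Cic-/- clones and -0.41 ± 0.19 in Cic+/+ clones (log2 ± SE, limma adjusted p = 0.587 and 0.4). With the clone as a block the limma adjusted p was 0.227 in Cic-/- clones and 0.127 in Cic+/+ clones, so it did not pass. The sign was shared by all clones of a genotype for 2 of 9 members in Cic-/- clones, Erbb2 and Erbb4, both lower with EGF, against 36.8% of all genes in either direction. In Cic+/+ clones it was shared for 5 of 9 members, against 28.9% of all genes. Egfr, Erbb2, Erbb4 and Tgfa were the 4 lower with EGF there, and Ereg was higher, with single clones near 0 for Egfr (-0.01), Erbb2 (-0.03) and Ereg (0.02). With its brightest probeset the Erbb2 difference in Cic+/+ clones was -0.02. The genotypes overlapped in Erbb2 in both media, with a difference of 0.12 ± 0.21 with EGF and 0.13 ± 0.21 without it (limma adjusted p = 0.892 and 0.89).

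Erbb3, the receptor whose own kinase is weak, lay near the dim limit. With EGF its log2 level was 5.27, 5.07 and 5.21 in Cic-/- clones 5, 6 and 7, against 4.84, 4.80, 5.29 and 4.60 in Cic+/+ clones 1 to 4. Without EGF its level was 4.61, 5.16 and 4.60 in Cic-/- clones 5, 6 and 7, against 5.15, 4.89, 5.12 and 5.02 in Cic+/+ clones 1 to 4. The groups overlapped in both media. Clones 5 and 7 had 0.66 and 0.61 more with EGF, clone 6 had a difference of -0.09, and the Cic+/+ clones lay between -0.42 and 0.18.

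The EGF difference of Erbb3 in Cic-/- clones minus that in Cic+/+ clones was 0.56 ± 0.25, with a 95% interval of 0.02 to 1.1 before any adjustment (limma adjusted p = 1). Its sign turned with the brightest of the 25 probesets, which gave -0.24. The mean of the probesets gave an EGF difference of 0.47 in Cic-/- clones, and with the clone as a block this passed, at a limma adjusted p of 0.0468. With the median the blocked value was 0.40 ± 0.16 (limma adjusted p = 0.242).

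Errfi1, the feedback inhibitor of EGFR, had small differences in every comparison. The log2 levels of Errfi1 with EGF were 8.22, 8.30 and 8.53 in Cic-/- clones 5, 6 and 7, against 8.37, 8.0, 7.67 and 8.04 in Cic+/+ clones 1 to 4. Its log2 levels without EGF were 8.47, 8.46 and 8.47 in Cic-/- clones 5, 6 and 7, against 8.23, 8.04, 8.27 and 7.99 in Cic+/+ clones 1 to 4. The 3 Cic-/- clones lay above all Cic+/+ clones without EGF, and clone 1 lay among them with EGF.

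The genotype difference of Errfi1 was 0.33 ± 0.16 with EGF and 0.33 ± 0.16 without it, 1.26-fold in each, with a 95% interval of -0.01 to 0.67 in each (log2 ± SE, limma adjusted p = 0.485 and 0.477). Its EGF difference was -0.11 ± 0.17 in Cic-/- clones, with an interval of -0.48 to 0.25, and -0.11 ± 0.15 in Cic+/+ clones, with an interval of -0.43 to 0.2 (neither passed, limma adjusted p = 0.896 in Cic-/- clones). The clones went both ways, from -0.25 to 0.06 in Cic-/- and from -0.60 to 0.14 in Cic+/+. The intervals leave room for differences in either direction.

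**Figure D3:**
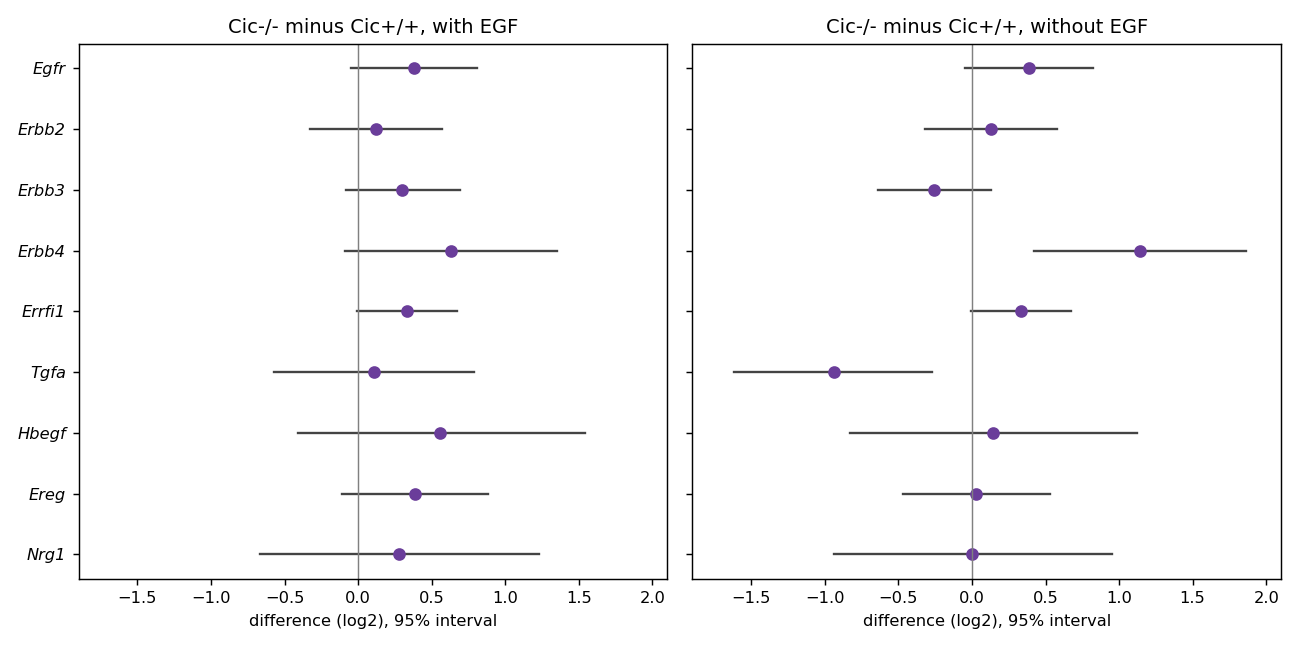
Difference between Cic-/- and Cic+/+ clones, log2 with 95% interval from limma without the block, for 9 members with EGF (left) and without EGF (right). Points right of 0 are higher in Cic-/- clones. All 9 points lie above 0 with EGF, which did not hold with the mean or the brightest of the probesets. Without EGF the intervals of Erbb4, 0.42 to 1.86, and Tgfa, -1.62 to -0.27, leave out 0, before adjustment over all genes.

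Tgfa, a ligand of EGFR, was lower with EGF in all 4 Cic+/+ clones, and in the Cic-/- clones its gene value went both ways. In medium with EGF the log2 level of Tgfa was 6.73, 6.41 and 6.38 in Cic-/- clones 5, 6 and 7, against 6.65, 6.59, 6.19 and 6.16 in Cic+/+ clones 1 to 4. In medium without EGF the level was 6.09, 6.97 and 6.85 in Cic-/- clones 5, 6 and 7, against 8.54, 7.41, 7.48 and 6.90 in Cic+/+ clones 1 to 4. With EGF the genotypes overlapped. Without EGF clone 6 lay above clone 4, so they overlapped there too, while the other 3 Cic+/+ clones lay above all Cic-/- clones.

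The order of the Tgfa group means was Cic+/+ without EGF at 7.58 ± 0.69, Cic-/- without EGF at 6.64 ± 0.48, Cic-/- with EGF at 6.51 ± 0.2 and Cic+/+ with EGF at 6.4 ± 0.26 (SD, n = 4, 3, 3 and 4). Arrays of every pair of neighbours in this order overlapped. The EGF difference was 0.64, -0.56 and -0.47 in Cic-/- clones 5, 6 and 7, and -1.89, -0.82, -1.29 and -0.74 in Cic+/+ clones 1 to 4. The Cic-/- clones and Cic+/+ clones did not overlap in this difference, as held for 1 of 9 members and for 6.24% of all genes. On the brightest probeset, 17460392, they did overlap, with -0.28, -0.61 and -1.84 in Cic-/- clones 5, 6 and 7 and -2.24, -1.27, -1.57 and -1.39 in Cic+/+ clones 1 to 4.

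In Cic+/+ clones the EGF difference of Tgfa was -1.18, or 2.27-fold lower with EGF, with an SE of 0.29 and a limma adjusted p of 0.0831 without the block, and an SE of 0.24 and a limma adjusted p of 0.013 with it. The blocked limma adjusted p was 0.059 without clone 2 and 0.0921 without clone 3. In Cic-/- clones the difference was -0.13 ± 0.34, with a 95% interval of -0.85 to 0.59 (limma adjusted p = 0.951). It was -0.52 without clone 5, 0.09 without clone 6 and 0.04 without clone 7, and -0.46 and -0.91 with the mean and the brightest of the probesets. The test of the difference between the genotypes gave 1.05 ± 0.45, with an interval of 0.1 to 2.01 before adjustment and a limma adjusted p of 1, or 0.668 with the block, so it did not pass. This value was 0.67 without clone 5, and 0.42 with the mean of the probesets. Without EGF the genotype difference was -0.94 ± 0.32, or 1.92-fold lower in Cic-/- clones, with an interval of -1.62 to -0.27 (limma adjusted p = 0.254), and with EGF it was 0.11 ± 0.32 (limma adjusted p = 0.941). The first of these was -0.59 with the mean of the probesets, and -0.63 without clone 1. The second was 0.00 without clone 5, 0.04 without clone 3 and 0.03 without clone 4, 0.19 without clone 1, 0.17 without clone 2 or 7, and -0.18 and -0.07 with the mean and the brightest of the probesets.

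The 7 probesets of Tgfa did not all behave alike. The brightest, probeset 17460392, had EGF differences of -0.91 in Cic-/- clones and -1.62 in Cic+/+ clones, and probeset 17460386 had 0.45 and -0.05. Taken as the gene value, the brightest probeset passed in Cic+/+ clones also without the block (limma adjusted p = 0.0202). Probesets 17460392 and 17460390 were lower with EGF in each of the 3 Cic-/- clones, clone 5 included. The gene value of clone 5 was that of probeset 17460386 in both media, 6.73 with EGF and 6.09 without. In every other clone the gene value fell on a different probeset with EGF than without it. Those gene-level EGF differences thus do not compare a probeset with itself. For clone 1 the value was 6.65 of probeset 17460386 with EGF and 8.54 of probeset 17460391 without. These 2 probesets themselves had EGF differences of 0.27 and -2.14 in clone 1. By group means, all 7 were lower with EGF in Cic+/+ clones, and 5 were in Cic-/- clones. Tested 1 by 1 in limma over all probesets, 1 passed in Cic+/+ clones, probeset 17460392 at an adjusted p of 0.0489. With the block 2 passed there, that probeset at a limma adjusted p of 0.0142 and probeset 17460391 at a limma adjusted p of 0.0398.

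**Figure D4:**
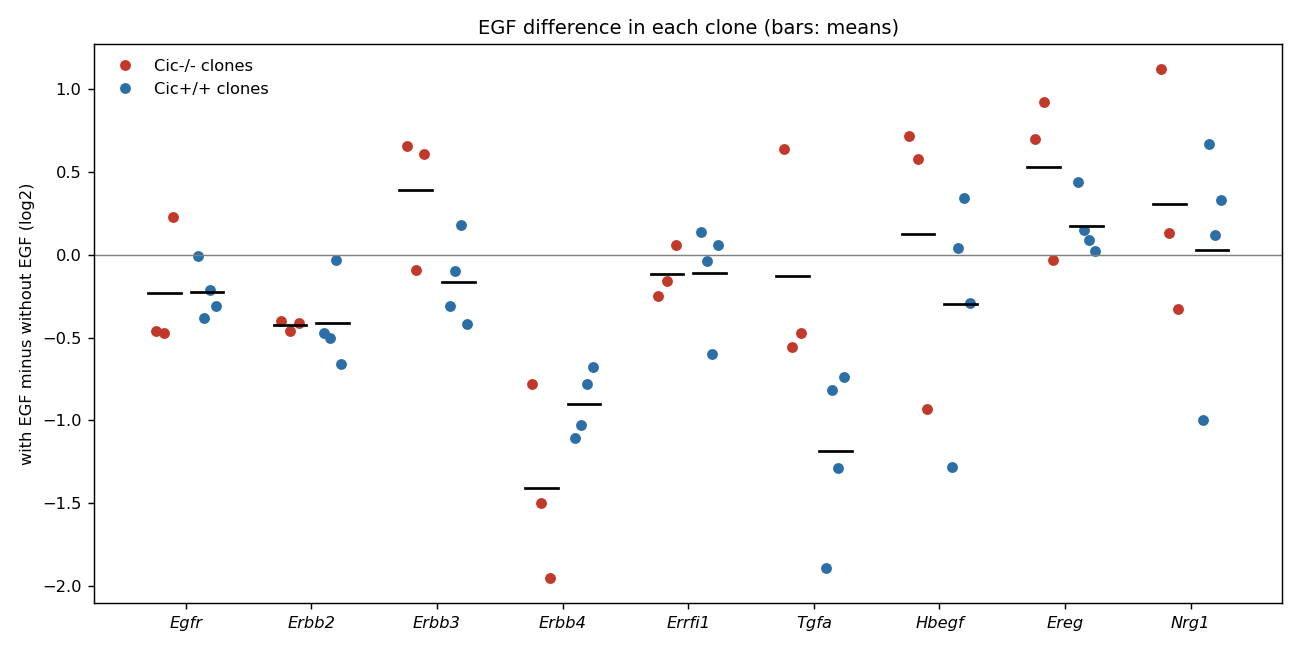
Level with EGF minus level without EGF (log2) in each clone for 9 members, with Cic-/- clones (red) left of Cic+/+ clones (blue) and black bars at the means. All 7 clones lie below 0 for Erbb2 and Erbb4. For Tgfa the 4 Cic+/+ clones lie between -1.89 and -0.74 and the 3 Cic-/- clones between -0.56 and 0.64.

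Hbegf, a ligand of EGFR and ERBB4, had single arrays that stood apart. With EGF its log2 level was 9.56, 9.83 and 9.46 in Cic-/- clones 5, 6 and 7, against 9.54, 8.89, 9.20 and 8.58 in Cic+/+ clones 1 to 4. Without EGF its level was 8.84, 9.25 and 10.38 in Cic-/- clones 5, 6 and 7, against 10.82, 8.85, 8.86 and 8.87 in Cic+/+ clones 1 to 4. Clone 1 without EGF lay far above the other 3 Cic+/+ clones, and clone 7 above the other 2 Cic-/- clones. The genotype difference was 0.56 ± 0.45 with EGF and 0.14 ± 0.45 without it, and the EGF difference was 0.12 ± 0.49 in Cic-/- clones and -0.30 ± 0.42 in Cic+/+ clones (log2 ± SE, limma adjusted p = 0.71, 0.955, 0.969 and 0.844). Without clone 1 the genotype difference without EGF was 0.63 and the EGF difference in Cic+/+ clones 0.03. Without clone 7 the genotype difference without EGF was -0.30 and the EGF difference in Cic-/- clones 0.65.

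Ereg, the other ligand of both receptors, had a low signal. The log2 levels of Ereg with EGF were 5.58, 6.30 and 5.60 in Cic-/- clones 5, 6 and 7, against 5.84, 5.18, 5.22 and 5.52 in Cic+/+ clones 1 to 4. Its log2 levels without EGF were 4.88, 5.38 and 5.62 in Cic-/- clones 5, 6 and 7, against 5.40, 5.04, 5.13 and 5.50 in Cic+/+ clones 1 to 4. The genotypes overlapped in both media. Clones 5 and 6 had 0.70 and 0.92 more with EGF, clone 7 had a difference of -0.03, and the 4 Cic+/+ clones had between 0.02 and 0.44 more. The mean EGF difference was 0.53 ± 0.25 in Cic-/- clones and 0.17 ± 0.21 in Cic+/+ clones (log2 ± SE, limma adjusted p = 0.514 and 0.815).

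Nrg1, the neuregulin that ERBB3 and ERBB4 bind, varied widely between clones. In medium with EGF the log2 level of Nrg1 was 7.43, 5.94 and 5.39 in Cic-/- clones 5, 6 and 7, against 5.99, 6.04, 5.53 and 6.34 in Cic+/+ clones 1 to 4. In medium without EGF the level was 6.30, 5.82 and 5.72 in Cic-/- clones 5, 6 and 7, against 6.98, 5.37, 5.41 and 6.01 in Cic+/+ clones 1 to 4. Clone 5 was the highest Cic-/- clone in both media, and clone 1 the highest Cic+/+ clone without EGF. The genotype difference was 0.28 ± 0.44 with EGF, with a 95% interval of -0.67 to 1.23, and 0.00 ± 0.44 without it, with an interval of -0.94 to 0.95 (limma adjusted p = 0.877 and 1). Without clone 5 the first of these was -0.31. Both intervals are wide in either direction.

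Over the 9 members, all 9 differences between Cic-/- and Cic+/+ clones with EGF lay above 0, with a median of 0.33 beside 0.02 over all genes tested. With the brightest probeset this did not hold. There Erbb2, Erbb3, Nrg1 and Tgfa lay below 0, at -0.14, -0.13, -0.07 and -0.07, and the other members above 0. With the mean of the probesets Tgfa lay below 0, at -0.18, and the other members above 0. Without clone 4 Erbb2 was at -0.02, and without clone 5 Nrg1 was at -0.31 and Tgfa near 0. Without any 1 of the other clones all 9 stayed above 0. By the median of the probesets, 7 of the 9 lay above 0 without EGF, with a median difference of 0.13. The EGF differences lay below 0 for 5 of 9 in Cic-/- clones, with a median of -0.11, and for 7 of 9 in Cic+/+ clones, with a median of -0.23, while the median over all genes was 0.01 and 0.00. Comparisons that share arrays are not independent of each other.

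Genes tested were ranked by Pearson's r with Egfr over the 14 arrays, with symbols of unnamed or predicted genes left out. The closest to Egfr were Adcy8 at 0.905, Lrrc4c at 0.902, Iglon5 at 0.899, Prxl2c at 0.898 and Bnip3 at 0.898. For Errfi1 they were Rpap2 at 0.907, Nsun3 at 0.895, Plpp1 at 0.89, Tatdn1 at 0.87 and Ssh1 at 0.856. These are the 5 highest among the genes so ranked, and the 14 arrays come from 7 clones.

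The rest of the pathway was read in 5 lists of 61 genes, of which 56 had a value and 54 were tested. Without the block none of the 54 passed the limma test in any of the 5 comparisons, with 10, 7, 5, 7 and 1 at an unadjusted p under 0.05, beside the 10.6%, 10.8%, 9.8%, 12.5% and 2.85% of all genes given for the members. The gene of smallest p in each list is named. Among 4 tested other ERBB ligands it was Btc, betacellulin, with an EGF difference of -0.58 ± 0.22 in Cic+/+ clones (limma adjusted p = 0.29). Among 8 genes of ligand shedding it was Timp3, an inhibitor of the shedding protease ADAM17, with -1.38 ± 0.33 in Cic+/+ clones (limma adjusted p = 0.0688). Among 16 genes of receptor trafficking and inhibition it was Socs5, which promotes EGFR degradation, with 0.85 ± 0.21 in Cic-/- clones (limma adjusted p = 0.131).

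Among 15 tested adaptors and genes of RAS and ERK the smallest p was that of Map2k2, the ERK kinase MEK2, with -0.48 ± 0.15 in Cic-/- against Cic+/+ clones with EGF (limma adjusted p = 0.234). Among 11 genes of PLCG, PI3K and STAT output it was Src, a tyrosine kinase, with -0.67 ± 0.18 in Cic-/- against Cic+/+ clones without EGF (limma adjusted p = 0.139). With the clone as a block, Socs5 rose with EGF and Timp3 fell in both genotypes. The EGF difference of Socs5 was 0.85 ± 0.17 in Cic-/- clones and 0.65 ± 0.15 in Cic+/+ clones (limma adjusted p = 0.0208 and 0.0228). That of Timp3 was -1.30 ± 0.3 in Cic-/- clones and -1.38 ± 0.26 in Cic+/+ clones (limma adjusted p = 0.0397 and 0.00782). In Cic+/+ clones Src, at -0.51 ± 0.14, and Eps15, an endocytic adaptor of EGFR, at -0.66 ± 0.16, also fell with the block (limma adjusted p = 0.0496 and 0.0277). Thus 2 of 54 passed in Cic-/- clones and 4 of 54 in Cic+/+ clones, beside 2.11% and 5.15% of all genes.

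These blocked calls also changed with the probesets read and when clones were left out. With the brightest probeset Socs5 did not pass in Cic-/- or Cic+/+ clones (limma adjusted p = 0.103 and 0.0952). With the mean and the brightest probeset, Src was at -0.14 and -0.20 in Cic+/+ clones (limma adjusted p = 0.34 and 0.365) and Eps15 at -0.29 and -0.33 (limma adjusted p = 0.196 and 0.188). With the clone as a fixed block Src had a limma adjusted p of 0.0759. For Socs5 the limma adjusted p was 0.0888 and 0.186 in Cic-/- clones without clones 5 and 6, and 0.103, 0.106 and 0.147 in Cic+/+ clones without clones 2, 3 and 4. For Timp3 it was 0.0733, 0.0628, 0.0501, 0.228 and 0.127 in Cic-/- clones without clones 2, 3, 4, 6 and 7, and 0.0786 and 0.0692 in Cic+/+ clones without clones 2 and 4. Src missed the threshold when any clone other than 6 was left out, with limma adjusted p from 0.0588 to 0.255, and Eps15 did so without clones 2, 3 and 4, with 0.159, 0.166 and 0.124. Without the block, Timp3 in Cic+/+ clones passed when clone 5 or 7 was left out (limma adjusted p = 0.0189 and 0.0337) and in the fit of the compared arrays alone (limma adjusted p = 0.0255), and Eps15 passed there when clone 7 was left out (limma adjusted p = 0.0407).

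Marker lists of other cell states were read beside Erbb4 and Tgfa in the same comparisons. The mean level of the oligodendrocyte progenitor list, 6 genes that include Pdgfra and Olig2, was 8.82 to 9.25 in Cic-/- clones with EGF and 9.73 to 10.25 in Cic+/+ clones with EGF. Its mean without EGF was 9.69 to 10.48 in Cic-/- clones and 10.33 to 10.67 in Cic+/+ clones. In all 7 clones the mean of this list was lower with EGF, as Erbb4 was. The same held in all 7 clones for the neuroblast and neuron list and for the mature astrocyte list, given next. With the block 2 of its 6 genes were lower with EGF in Cic-/- clones and 1 in Cic+/+ clones, and 1 was lower in Cic-/- than in Cic+/+ clones with EGF. The mean level of the neuroblast and neuron list, 6 genes that include Dcx and Tubb3, was 6.53 to 6.58 in Cic-/- clones with EGF and 6.78 to 7.04 in Cic+/+ clones with EGF. The same mean without EGF was 7.32 to 7.34 in Cic-/- clones and 7.32 to 7.48 in Cic+/+ clones. With the block 2 of its 6 genes were lower with EGF in Cic-/- clones and 1 in Cic+/+ clones. The mean of the myelinating oligodendrocyte list, 7 of 8 genes with a value, was 5.51 to 5.80 in Cic-/- clones with EGF and 6.02 to 6.37 in Cic+/+ clones with EGF. Without EGF it was 5.60 to 5.96 in Cic-/- clones and 7.72 to 8.25 in Cic+/+ clones, the group in which Tgfa was highest. In that medium 6 of its genes were lower in Cic-/- clones. With the block 6 of its 7 genes were lower with EGF in Cic+/+ clones and 0 in Cic-/- clones. For the interaction 3 passed with the block, beside 0.0404% of all genes, and 1 passed without it, beside 0.00577%.

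The mean of the mature astrocyte list of 5 genes was 9.42 to 9.91 in Cic-/- clones with EGF and 9.66 to 10.32 in Cic+/+ clones with EGF. In medium without EGF it was 9.78 to 10.60 in Cic-/- clones and 10.63 to 11.00 in Cic+/+ clones. With the block 1 of its 5 genes was lower with EGF in Cic-/- clones and 2 in Cic+/+ clones. The mean of the mitosis and replication list, 7 of 8 genes with a value, was 8.05 to 9.63 in Cic-/- clones with EGF and 9.50 to 10.33 in Cic+/+ clones with EGF. Their mean without EGF was 8.27 to 9.67 in Cic-/- clones and 9.11 to 9.67 in Cic+/+ clones. None of the 7 passed in any comparison, with or without the block. The part of these marker levels in the Erbb4 and Tgfa differences was not tested.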

How the data were processed

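RNA was hybridised to 14 Affymetrix arrays, and the deposited values are on the log2 scale by probeset, which the authors obtained with RMA per the submitters' processing notes. For the RMA version and the array annotation, no build or number is given in the sources used here. Of 269751 probesets, 233753 named 1 gene through the platform annotation, 5106 named several and 30892 none, and the last 2 kinds were not used. Each gene took the median over its probesets. Of 23102 genes, the 25% with the lowest means, under 4.4, were removed as dim. Symbols were updated and starts taken from RefSeq (GRCm38.p6).

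The test was limma 3.58.1, run in R 4.3.3 (package data.table, version 1.17.8), with 4 group means, no block, 10 residual and 4.07 prior degrees of freedom, and Benjamini-Hochberg adjustment over 17326 genes. Python 3.11.15, pandas 2.3.3, numpy 2.4.6 and matplotlib 3.10.9 made the summaries and figures. The procedure was tested on simulated data. In the fit without the block, p-values rest on the spread within groups, whose arrays come from separate animals. That fit treats the 2 arrays of a clone as independent. The clone block was random unless called fixed, and the random block used 1 correlation within clones for all genes. Its p-values rest on a spread that combines how levels and how EGF differences vary between clones. With the fixed block, p-values for EGF and the interaction rest largely on how the EGF difference varies between clones.

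The labels give each clone's arrays, with and without EGF, the same number and each clone 1 animal, so clone numbers pair the arrays. Deviations from group means correlated within clones 1 to 7 at 0.474, 0.323, 0.459, 0.338, 0.585, 0.157 and 0.616. Each array with EGF was also compared with the arrays without EGF of the other clones of its genotype. All of those correlations were lower than the clone's own, and the margin was smallest for clone 6, with 0.157 against 0.121. The consensus correlation was 0.348, estimated in limma for genes and on at least 20000 probesets for the fit by probeset.

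The members and lists were chosen with earlier results of these data known. All members are named; from each other list, up to 4 genes that pass, or the 1 of smallest p; and the 5 closest neighbours of Egfr and Errfi1. Eps15 was named after its values were seen. Alternatives were the mean or brightest probeset, no dim filter or 50%, a trended robust prior, median centring, quantile normalization, a random or fixed block for the clone, the compared arrays alone, each probeset alone, and leaving out each clone. Combining the block with other settings was added after seeing the data.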

Additional observations from a re-analysis of the deposited data

Results flagged for a closer look

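The Hbegf level of Cic+/+ clone 1 without EGF was 10.82, against 8.85 to 8.87 in the other 3 clones of that group, a gap of 0.99 of the group's whole range. It was the only sample that stood that far from the others among 27 groups of 4 clones looked at for the members and their EGF differences. Chance alone picks about 5% of such groups. The same array had the highest Tgfa level, 8.54, and the highest Nrg1 level of its group, 6.98.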

How the results depend on the processing

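The limits are 3 or 4 clones a group and RMA values with no signal over background, and a dim gene such as Erbb3 depends on the probeset read. With the clone as a replicate block, random or fixed, the members passing were 1 for EGF in Cic-/- clones and 2 in Cic+/+ clones, against 0 without the block. The random block with the mean of probesets gave 2 and 2, and with the brightest probeset 0 and 1; the brightest probeset without the block gave 0 and 1, the last being Tgfa. Leaving out each clone in turn with the block gave 0 to 1 members in Cic-/- clones and 0 to 2 in Cic+/+ clones, and without the block 0. The fixed block could not be fitted for the genotype comparisons, since a clone has 1 genotype. With the brightest probeset, with or without the block, Erbb3 turned sign between Cic-/- and Cic+/+ clones with EGF (-0.13) and without EGF (0.10), and in the interaction (-0.24). Other members turned sign with the brightest probeset too. For genotype with EGF these were Erbb2 (0.12 to -0.14), Nrg1 (0.28 to -0.07) and Tgfa (0.11 to -0.07). Without EGF Ereg went from 0.03 to -0.52. The EGF difference of Erbb3 in Cic+/+ clones went from -0.16 to 0.37, and that of Errfi1 in Cic-/- clones from -0.11 to 0.01. The Src interaction turned to -0.01 with the mean and -0.02 with the brightest probeset, with or without the block. The cause was not tested. No other member count changed, and 0 members passed for the genotype comparisons and the interaction throughout. Over all genes, calls for genotype with EGF, genotype without, EGF in Cic-/-, EGF in Cic+/+ and the interaction numbered 53, 95, 33, 157 and 1, and 80, 169, 70, 256 and 2 with the mean of probesets. With the block they numbered 62, 120, 366, 893 and 7, and the fixed block gave 520, 966 and 3 for the last 3 of these. The compared arrays alone gave 34, 43, 3 and 190, and leaving out a clone 18 to 59, 52 to 124, 0 to 68, 17 to 217 and 1 to 3. For EGF in Cic-/- clones the stricter dim filter gave 51, the trended prior 51, centring 55 and quantile normalization 59.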
